A study of Mus musculus and Rattus norvegicus with 30 samples.

Results

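The genes for chromatin-silencing and DNA-demethylating enzymes, together with the assembled long non-coding RNA (LncRNA) LncRNA6176, were examined in dorsal root ganglia (DRG) after peripheral nerve injury. The 10 mouse members were Ezh1, Ezh2, Ehmt1, Ehmt2, Dnmt1, Dnmt3a, Dnmt3b, Tet1, Tet3 and LncRNA6176, out of 54315 features in the mouse table, and the 9 enzymes were also present among 39281 features in the rat table. The enzymes were chosen by gene symbol. LncRNA6176 was chosen for its rise after injury in BALB/c mice and for lying opposite an exon of Ezh1, so its BALB/c change and any strain contrast that uses it are given as descriptions with no test.

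Mouse libraries came from L3 and L4 DRG of BALB/c or B10.D2 mice of both sexes, after spared nerve injury (SNI, a partial lesion of the sciatic nerve) or sham surgery, and were prepared from ribosomal RNA-depleted RNA. BALB/c contributed 6 sham and 4 SNI libraries and B10.D2 contributed 5 of each. Rat libraries came from L5 DRG of male Wistar rats after spinal nerve transection (SNT) or sham surgery, with 4 libraries a group, 3 pooled animals in each and poly-A RNA as input. The labels name no deletion, transgene or agent for any group, and ages are not given in the labels. By the study's methods, each mouse sample was the L3 and L4 DRG of 1 animal. The same methods give a longer time from surgery to dissection for the mice than for the rats.

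Total counts ran from 29989963 to 41881331 per mouse library and from 11954612 to 17887909 per rat library. Levels are given as CPM, the counts per 1000000 counts of a library after TMM scaling, and 3 counts correspond to 0.0716 to 0.10 CPM in mouse and 0.168 to 0.251 CPM in rat, a limit that covers counting error only. Every neuronal marker had counts in mouse. Summed injured-neuron markers (Atf3, Sprr1a, Gal and others) were 189 to 245 CPM in BALB/c sham against 633 to 782 CPM after SNI. The B10.D2 sum was 196 to 247 CPM in sham and 290 to 533 CPM after SNI. The rat sum was 270 to 690 CPM in sham (median 290) and 944 to 1389 CPM after SNT. Atf3 and Gap43 were listed at 0 in every rat library. Along the first principal component of the rat libraries, which held 70.1% of the variance, sham libraries 1 to 3 lay between -52.9 and -39.6 and SNT libraries 2 to 4 between 34.0 and 54.7. Rat sham library 4 (-7.23) and SNT library 1 (1.27) lay between them, and the rat log2 changes are therefore given with and without both. Since both were picked for lying between the groups, leaving them out widens the group differences by construction, and those values are given as a description with no test.

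Ezh1 and Ezh2 are the alternative catalytic subunits of polycomb repressive complex 2 (PRC2), which methylates histone H3 at lysine 27, a mark of silenced chromatin. Ehmt1 (GLP) and Ehmt2 (G9a) act together to methylate histone H3 at lysine 9, and G9a is known in injured sensory ganglia for silencing potassium channel and opioid receptor genes. Dnmt1 copies DNA methylation after replication, Dnmt3a and Dnmt3b place it on unmethylated DNA, and Tet1 and Tet3 oxidise methylcytosine on the way to its removal.

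LncRNA6176 lies on the plus strand of mouse chromosome 11, opposite and beyond Ezh1. In mm10 coordinates it spans chr11:101206301-101252456 with 12 exons and 3233 exonic bases, whereas Ezh1 spans chr11:101191115-101226463 on the minus strand. Exon 2 of LncRNA6176 is the stretch that makes it antisense to Ezh1. It is printed below with Ezh1 exon 8, each read 5′ to 3′ on its own strand from the RefSeq GRCm38 genome, with exonic bases in capitals and 15 flanking bases in lower case on each side.
LncRNA6176 exon 2, chr11:101209364-101209497, plus strand: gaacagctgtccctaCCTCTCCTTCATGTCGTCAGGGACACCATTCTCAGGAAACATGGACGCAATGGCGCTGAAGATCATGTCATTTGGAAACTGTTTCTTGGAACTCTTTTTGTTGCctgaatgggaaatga
Ezh1 exon 8, chr11:101209365-101209497, minus strand: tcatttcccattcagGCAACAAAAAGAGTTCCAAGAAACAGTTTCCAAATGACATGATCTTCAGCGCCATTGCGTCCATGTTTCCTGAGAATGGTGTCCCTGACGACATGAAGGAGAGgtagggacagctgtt

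Exon 2 of LncRNA6176 (104 bases) covered all 103 bases of this internal coding exon of Ezh1 and 1 base more. That overlap was 3.19% of the exonic bases of LncRNA6176, and no other exon of it lay opposite an Ezh1 exon. Exons 1 and 2 (243 bases) lay inside the span of Ezh1, exons 3 to 5 (647 bases) lay in no annotated gene, and exons 6 to 12 (2343 bases, 72.5% of the total) lay inside the GENCODE span of Ramp2 on the same strand. No exon of LncRNA6176 shared a base with a GENCODE exon on its own strand. Ramp2 encodes a co-receptor that pairs with the calcitonin receptor-like receptor. Exon 6 began 1115 bases beyond the RefSeq end of Ramp2, and 131 bases of exon 12 fell inside a RefSeq exon of Vps25, a subunit of the endosomal sorting machinery. The map of the locus shows this arrangement.

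**Figure D1:**
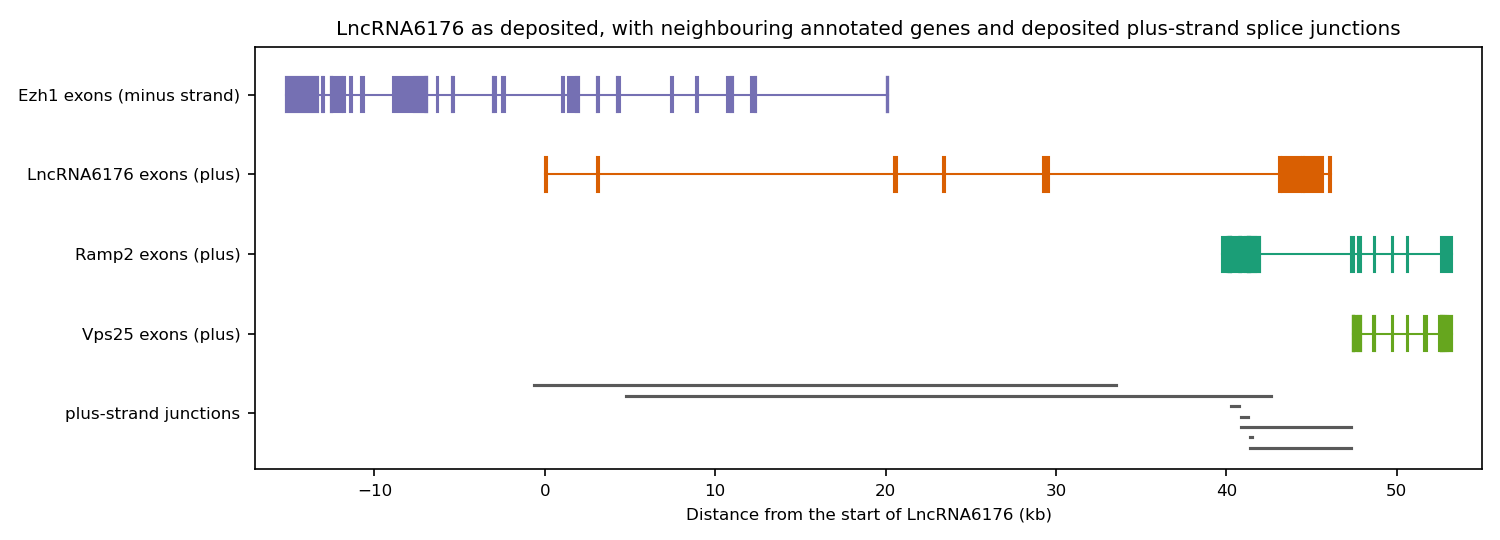
Map of the LncRNA6176 locus on mouse chromosome 11, with distance in kb from the start of LncRNA6176 on the horizontal axis and the exons and spans of LncRNA6176, Ezh1 and its neighbours as separate rows. Exon 2 sits opposite an Ezh1 exon, and exons 6 to 12 sit inside the GENCODE span of Ramp2.

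None of the 11 gaps between the exons of LncRNA6176 matched a deposited splice junction on either strand, out of 19 deposited junctions that overlapped the span (7 on the plus strand and 12 on the minus strand). None of the gaps had GT-AG, GC-AG or AT-AC ends on the plus strand, and 0 plus-strand junctions touched an exon edge. Of the plus-strand junctions, 2 skipped over exons 6 to 12. On the minus strand, that of Ezh1, gap 2 began where a deposited junction began, at the edge of exon 2, and gap 1 ended 1 base before the end of another. Gap 4 had GT-AG ends when read on the minus strand, and the other 10 gaps had none of the 3 pairs of ends there. Repeats soft-masked in the reference made up 47.0% of the exonic bases, and exons 3, 7 and 10 were masked throughout. Exon 3, which begins 342 bases beyond the 5′ end of Ezh1, is shown as an example of an exon that is masked throughout, in lower case.
LncRNA6176 exon 3, chr11:101226806-101226954, plus strand: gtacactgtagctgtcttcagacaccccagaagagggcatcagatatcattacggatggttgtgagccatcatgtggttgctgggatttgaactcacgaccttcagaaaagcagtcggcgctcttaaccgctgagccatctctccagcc

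The libraries kept strand information through dUTP marking, but the strand setting used in counting is not given in the sources used here. Without it, whether reads from exon 2 of LncRNA6176 and from Ezh1 exon 8 were separated by strand is not known.

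LncRNA6176 as deposited was a low-abundance feature whose level was higher after SNI in BALB/c. Its count is a sum over all 12 exons, and whether they form a single transcript was not tested. No count was available for exon 2 alone, so no change of the stretch opposite Ezh1 is shown. The 6 BALB/c sham libraries ranged from 0.485 to 0.924 CPM with a median of 0.617 CPM (17 to 33 reads). The 4 BALB/c SNI libraries held 2.46, 1.63, 2.02 and 1.47 CPM in libraries 49, 64, 65 and 70 (76, 65, 78 and 52 reads). Every SNI library lay above every sham library, and the group means were 0.661 ± 0.175 CPM (SD, n = 6) and 1.90 ± 0.443 CPM (SD, n = 4), a 2.85-fold difference (log2 1.51, SE 0.274). Leaving out single libraries moved this log2 difference between 1.34 and 1.63. Every injured library lay above every sham library for 4.30% of features tested in BALB/c.

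In B10.D2 the same feature had a higher mean after SNI but did not pass the test. The 5 sham libraries held 0.672, 0.513, 0.706, 1.17 and 0.507 CPM in libraries 58, 60, 67, 77 and 88. The 5 SNI libraries held 1.90, 0.638, 1.11, 1.47 and 1.68 CPM in libraries 69, 76, 78, 89 and 90. The groups overlapped, since SNI library 76 lay below 3 sham libraries and sham library 77 lay above SNI libraries 76 and 78. The means were 0.714 ± 0.271 and 1.36 ± 0.496 CPM (SD, n = 5 each), a log2 difference of 0.92 (SE 0.279, edgeR adjusted p = 0.0684), where 2.10% of features were called higher. Without SNI library 76 the difference was 1.10 (edgeR adjusted p = 0.0118), and without sham library 77 it was 1.19 (edgeR adjusted p = 0.0237). DESeq2 gave an adjusted p of 0.0350 and edgeR with no filter on low counts 0.0338. Males alone gave a log2 difference of 1.48 (edgeR adjusted p = 0.0917) and females alone 0.35 (edgeR adjusted p = 0.790), and whether the sexes differ in it was not tested. The B10.D2 change minus the BALB/c change was -0.60 on the log2 scale, with a range of 2 SE either way from -1.39 to 0.19.

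**Figure D2:**
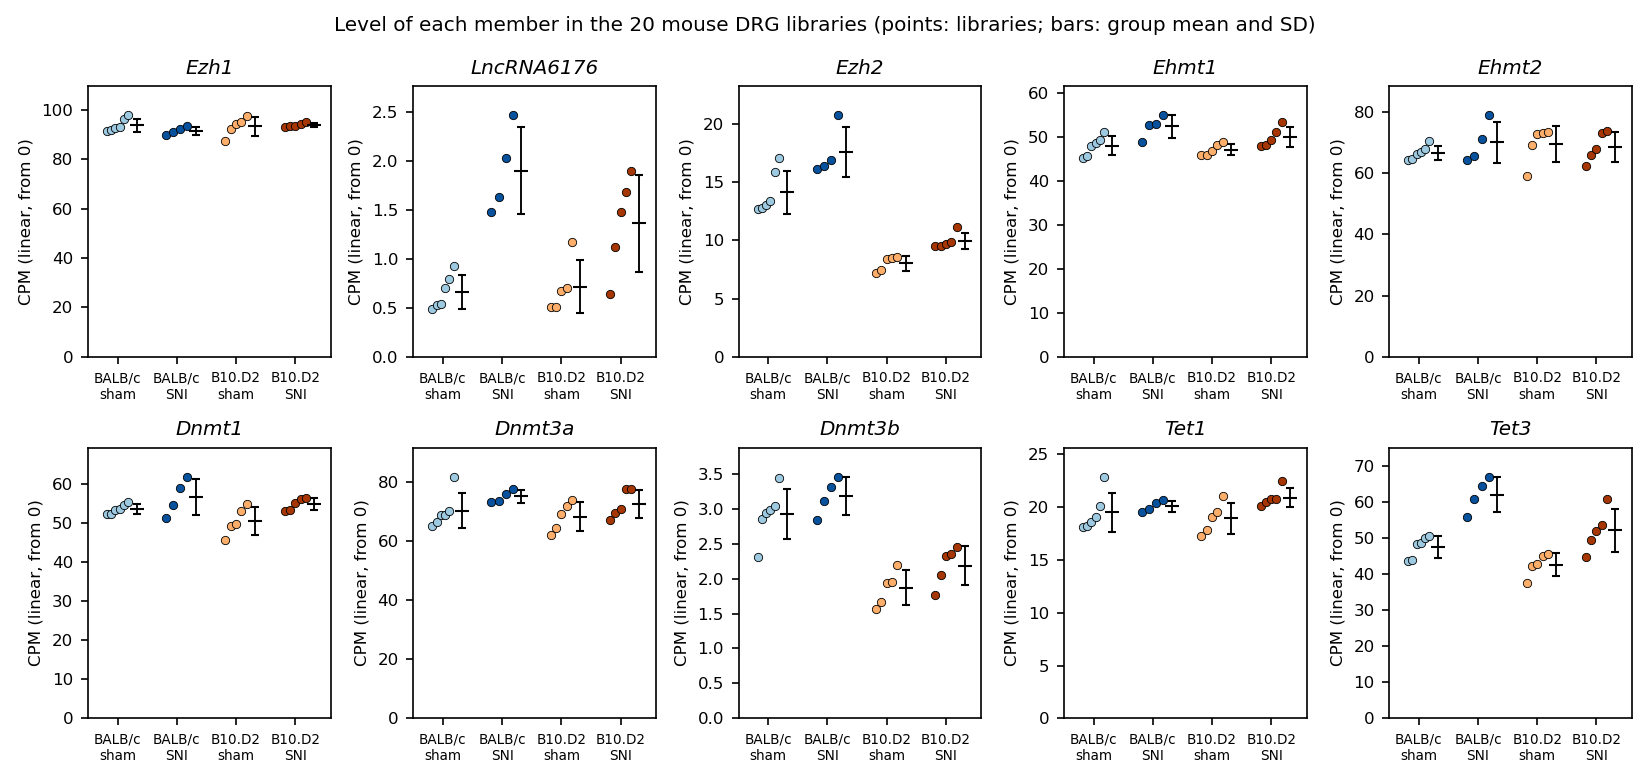
CPM of each of the 10 members in the 20 mouse libraries, 1 panel per member with its own vertical axis, points for libraries and bars for the mean and SD of each strain and surgery group. Ezh1 stayed between 87.7 and 98.0 CPM in every library, whereas the 4 BALB/c SNI libraries of LncRNA6176 lay above all 6 BALB/c sham libraries.

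Ezh1, on the opposite strand, differed by under 3 CPM between the group means. BALB/c sham libraries ranged from 91.6 to 98.0 CPM (median 92.9), and SNI libraries 49, 64, 65 and 70 held 91.0, 89.8, 93.5 and 92.6 CPM. In B10.D2, sham libraries ranged from 87.7 to 97.5 CPM and SNI libraries from 93.0 to 95.4 CPM. The injury change was -0.04 in BALB/c (log2, SE 0.0344, edgeR adjusted p = 0.598) and 0.01 in B10.D2 (log2, SE 0.0340, edgeR adjusted p = 0.963), and the groups overlapped in both strains. In B10.D2 the sign of this near-zero value depended on the samples fitted: it was -0.03 in females alone.

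No relation between LncRNA6176 and Ezh1 from library to library passed a test. With the strain and surgery group means subtracted, Pearson's r of log2(CPM + 0.5) over 20 libraries was 0.0512 (two-sided permutation p = 0.828, adjusted p = 1 over the 10 p-values of this family) and Spearman's rho was -0.0135 (permutation p = 0.959, adjusted p = 1). Without B10.D2 sham library 77 and SNI library 76, the most distant libraries in LncRNA6176, r was -0.126. Within the 10 B10.D2 libraries r was 0.267 (permutation p = 0.493, adjusted p = 0.821) with a rho of -0.00606 (permutation p = 1, adjusted p = 1), and r was 0.475 without SNI libraries 69 and 90. Within the 6 BALB/c sham libraries r was -0.490 (exact permutation p = 0.339, adjusted p = 0.678) and rho -0.200 (exact permutation p = 0.714, adjusted p = 1), and r was -0.242 without sham libraries 50 and 55. The 4 BALB/c SNI libraries are too few for a correlation. At 17 to 78 reads a library, counting error makes up part of the spread of LncRNA6176, and its share was not tested.

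**Figure D3:**
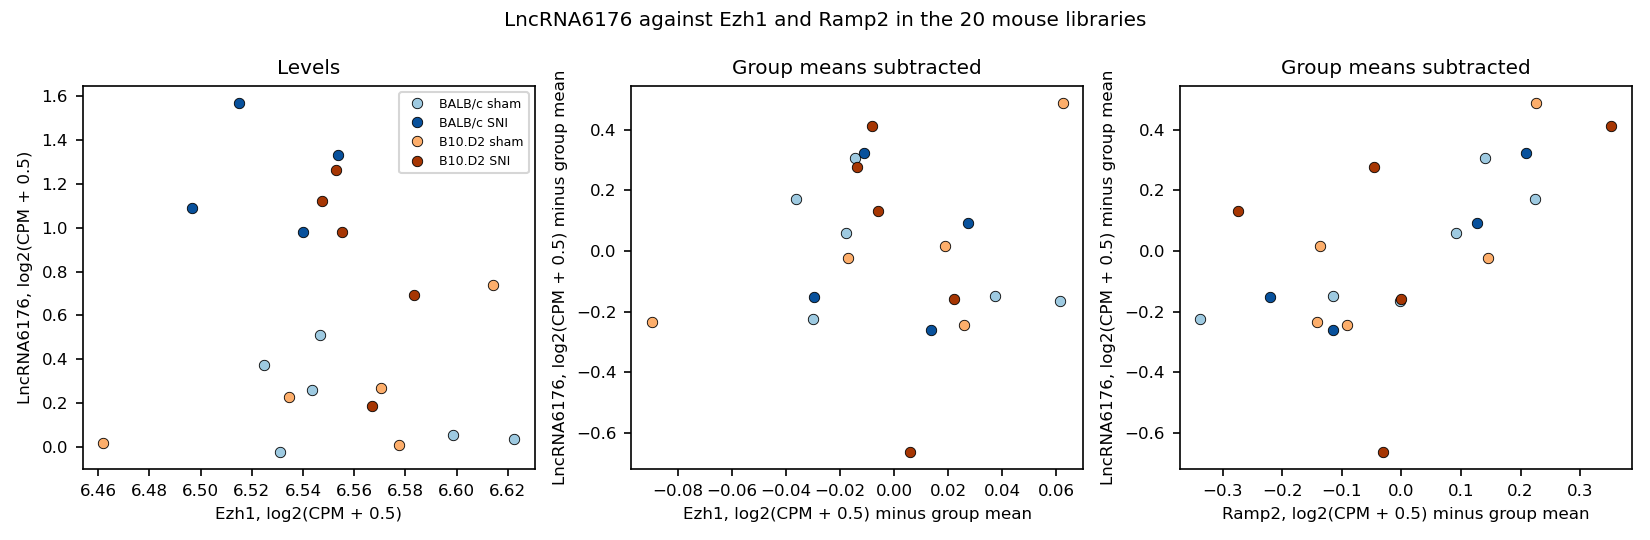
LncRNA6176 against Ezh1 and against Ramp2 in the 20 mouse libraries, as log2(CPM + 0.5), with points marked by group. The left panel shows levels against Ezh1 with nothing subtracted. The middle (Ezh1) and right (Ramp2) panels show values after subtraction of the strain and surgery group means. The centred points for Ezh1 show no slope (r = 0.0512), and those for Ramp2 rise from left to right (r = 0.606, adjusted permutation p = 0.0627).

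With Ramp2, whose span holds 7 of its exons, LncRNA6176 had a centred r of 0.606 (permutation p = 0.0125, adjusted p = 0.0627) and a rho of 0.614 (permutation p = 0.0103, adjusted p = 0.0627) over 20 libraries, and r was 0.670 without B10.D2 libraries 77 and 76. With Vps25 r was -0.368 (permutation p = 0.118, adjusted p = 0.395), rho was -0.313 (permutation p = 0.201, adjusted p = 0.502), and r was -0.396 without the same libraries. Both relations were added after the structure had been seen, and neither passed after adjustment. Among 18593 features averaging 1 CPM or more, the 5 with the highest centred r to LncRNA6176 over the 20 libraries were Wfdc3 (0.819), Ucp2 (0.792), Fam105a (0.745), LncRNA7475 (0.739) and Bub1b (0.738). Those most like Ezh1 were 5430403G16Rik (0.822), Gm5141 (0.811), Crebrf (0.760), Gm44168 (0.749) and LncRNA6058 (0.747), and the 2 features of each pair were measured in the same libraries. All of these are the extremes of 18593 correlations over 20 libraries. They were not tested, and high values arise by chance among so many.

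No annotated gene within 50 kb of LncRNA6176 was called after injury in either strain by edgeR. At an unadjusted p under 0.05, 2 of the tested neighbours other than Ezh1 passed in BALB/c, Tubg2 (log2 -0.25, adjusted p = 0.0784) and Cntnap1 (log2 -0.32, adjusted p = 0.0502), and none did in B10.D2. DESeq2 called the same 2 genes in BALB/c and 0 in B10.D2. Ramp2 itself changed by 0.15 in BALB/c (log2, adjusted p = 0.502) and by -0.15 in B10.D2 (log2, adjusted p = 0.612). The log2 changes of Vps25, Wnk4, Plekhh3, Coa3, Cntd1 and Becn1 lay between -0.09 and 0.06 over both strains, those of Ccr10 were -0.10 and -0.43, and the antisense gene Gm11615 was too low to be tested.

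Per kilobase of exon, the enzymes kept much the same order of level in the mouse groups. Length was the merged exons of all GENCODE transcripts of a gene, or the deposited exons of LncRNA6176. The order between genes therefore depends on which transcripts are annotated. In BALB/c sham libraries Ezh1 (12.6 ± 0.353 CPM per kb, SD, n = 6) and Ehmt2 (12.1 ± 0.424) stood highest and overlapped. Dnmt1 followed at 7.25 ± 0.174, Ehmt1 at 5.92 ± 0.276, Dnmt3a at 4.22 ± 0.359 and Tet3 at 2.85 ± 0.183 CPM per kb. Below them lay Ezh2 at 2.12 ± 0.277, Tet1 at 1.26 ± 0.118, Dnmt3b at 0.573 ± 0.0706 and LncRNA6176 at 0.204 ± 0.0541 CPM per kb, and no other neighbours in this order overlapped. In B10.D2 sham, Ezh2 (1.20 CPM per kb) overlapped Tet1 (1.23), and Dnmt3b (0.366) overlapped LncRNA6176 (0.221). After SNI, LncRNA6176 overlapped Dnmt3b in both strains, at 0.587 against 0.623 CPM per kb in BALB/c and 0.421 against 0.428 in B10.D2.

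Ezh2 rose after SNI in BALB/c. Its B10.D2 estimate was of like size without passing the test. BALB/c sham libraries ranged from 12.7 to 17.0 CPM (median 13.2), and SNI libraries 49, 64, 65 and 70 held 20.8, 16.9, 16.4 and 16.2 CPM. The groups overlapped, with sham library 50 (17.0 CPM) above 3 SNI libraries. The change was 1.24-fold (log2 0.31, SE 0.0921, edgeR adjusted p = 0.0361). The call was lost without any 1 of SNI libraries 49, 64 and 65 and sham libraries 51, 56, 57 and 71, with adjusted p up to 0.173 and a log2 change of 0.23 without SNI library 49. In B10.D2, sham libraries 58, 60, 67, 77 and 88 held 8.59, 7.48, 7.20, 8.49 and 8.40 CPM, and SNI libraries 69, 76, 78, 89 and 90 held 11.1, 9.47, 9.55, 9.66 and 9.89 CPM. Every B10.D2 SNI library lay above every sham library, as for 2.41% of features, and the log2 change was 0.32 (SE 0.0953, edgeR adjusted p = 0.0622, DESeq2 adjusted p = 0.0307).

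Markers of proliferating cells (Mki67, Top2a, Mcm genes and others, 11 in all) were summed beside Ezh2, and their relation with it was not tested. Their summed level was 64.4 to 131 CPM in BALB/c sham and 93.4 to 221 CPM after SNI. In that strain 3 of 11 were called higher (Mcm3, Mcm6 and Ccnb1), where 4.82% of features were. In B10.D2 the sum was 72.4 to 81.2 CPM in sham and 81.0 to 95.2 CPM after SNI. There 0 of 11 were called by edgeR or DESeq2, and 1 had an unadjusted p under 0.05. BALB/c SNI library 49 was highest in both (221 CPM of these markers), and sham libraries 50 and 55 were the 2 highest BALB/c sham libraries in both. Other libraries did not keep this order. BALB/c SNI library 64 was lowest of its group in these markers (93.4 CPM), with more Ezh2 (16.9 CPM) than libraries 65 and 70. B10.D2 SNI library 89 was lowest of its group in the markers (81.0 CPM), with more Ezh2 (9.66 CPM) than libraries 76 and 78. The part of these cells in the Ezh2 difference was not tested. In whole ganglia, more cells of a type and more RNA per cell cannot be told apart.

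The widest strain difference among the members was also in Ezh2. BALB/c sham libraries held 1.77 times the level of B10.D2 sham libraries (14.1 ± 1.85 CPM, n = 6, against 8.03 ± 0.644 CPM, n = 5, log2 B10.D2 minus BALB/c -0.82, SE 0.0905, edgeR adjusted p = 5.29e-07). After SNI the ratio was 1.76 (17.6 ± 2.16 against 9.94 ± 0.687 CPM, log2 -0.81, edgeR adjusted p = 1.92e-06). No B10.D2 library reached the lowest BALB/c library in either state, as for 1504 of 24685 features in sham and 2186 of 24685 after SNI. Summed proliferating-cell markers overlapped between the strains in sham libraries (median 71.7 CPM in BALB/c and 76.6 CPM in B10.D2).

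Ehmt1 and Ehmt2, the lysine 9 methyltransferases, passed no test in the mouse. Ehmt1 was 48.1 ± 2.24 CPM in BALB/c sham and 52.4 ± 2.57 CPM after SNI (log2 0.13, SE 0.0441, edgeR adjusted p = 0.0799), and it passed only without SNI library 65 (adjusted p = 0.0431). In B10.D2 it was 47.1 ± 1.29 and 50.04 ± 2.26 CPM (log2 0.08, edgeR adjusted p = 0.378). Ehmt2 was 66.7 ± 2.33 and 69.997 ± 6.70 CPM in BALB/c (log2 0.07, edgeR adjusted p = 0.569) and 69.5 ± 6.02 and 68.6 ± 4.81 CPM in B10.D2 (log2 -0.01, edgeR adjusted p = 0.975). The groups of both genes overlapped in both strains, and the sign for Ehmt2 changed with the samples fitted.

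Of the DNA methyltransferases, none passed the injury test in the mouse. Dnmt1 moved from 53.5 ± 1.28 to 56.6 ± 4.62 CPM in BALB/c (log2 0.08, edgeR adjusted p = 0.341) and from 50.5 ± 3.57 to 54.8 ± 1.53 CPM in B10.D2 (log2 0.13, edgeR adjusted p = 0.128). Dnmt3a was 70.3 ± 5.97 and 75.2 ± 2.10 CPM in BALB/c (log2 0.10, edgeR adjusted p = 0.376) and 68.3 ± 5.03 and 72.7 ± 4.81 CPM in B10.D2 (log2 0.09, edgeR adjusted p = 0.545). All of these groups overlapped.

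Dnmt3b differed between the strains and did not pass the injury test. BALB/c sham libraries ranged from 2.31 to 3.43 CPM (median 2.96), and B10.D2 sham libraries 58, 60, 67, 77 and 88 held 1.67, 2.20, 1.96, 1.94 and 1.57 CPM. BALB/c SNI libraries 49, 64, 65 and 70 held 3.31, 3.46, 3.11 and 2.84 CPM, and B10.D2 SNI libraries 69, 76, 78, 89 and 90 held 2.32, 2.45, 2.35, 1.77 and 2.04 CPM. Every B10.D2 library lay below every BALB/c library of the same surgery, as for 1504 of 24685 features in sham and 2186 of 24685 after SNI. The B10.D2 minus BALB/c difference was -0.64 in sham (log2, SE 0.116, edgeR adjusted p = 0.000269) and -0.55 after SNI (log2, SE 0.125, edgeR adjusted p = 0.00255). The injury changes were 0.12 in BALB/c (log2, edgeR adjusted p = 0.612) and 0.21 in B10.D2 (log2, edgeR adjusted p = 0.434).

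Tet3 was the enzyme called after SNI in both strains. BALB/c sham libraries ranged from 43.8 to 50.8 CPM (median 48.5), and SNI libraries 49, 64, 65 and 70 held 67.2, 64.6, 55.99 and 60.9 CPM, all above every sham library. The change was 1.30-fold (log2 0.38, SE 0.0738, edgeR adjusted p = 0.00160) and was called without any single library. In B10.D2, sham libraries 58, 60, 67, 77 and 88 held 43.0, 45.7, 45.0, 42.2 and 37.7 CPM, and SNI libraries 69, 76, 78, 89 and 90 held 53.7, 44.8, 52.1, 49.4 and 60.99 CPM. SNI library 76 lay below sham libraries 60 and 67, and the change was 1.23-fold (log2 0.29, SE 0.0737, edgeR adjusted p = 0.0233). That call was lost without any 1 of SNI libraries 69 and 90 and sham libraries 58, 77 and 88, with a log2 change of 0.22 and an adjusted p of 0.116 without library 90. After SNI, Tet3 was lower in B10.D2 than in BALB/c (52.2 ± 5.96 against 62.2 ± 4.85 CPM, log2 -0.25, SE 0.0770, edgeR adjusted p = 0.0239), a call lost without B10.D2 SNI library 76 or 89 or BALB/c SNI library 49 or 64. In sham libraries the difference was -0.16 (log2, edgeR adjusted p = 0.120).

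Tet1 was 19.5 ± 1.82 CPM in BALB/c sham and 20.1 ± 0.531 CPM after SNI (log2 0.04, edgeR adjusted p = 0.768), and 19.0 ± 1.48 and 20.9 ± 0.911 CPM in B10.D2 (log2 0.14, edgeR adjusted p = 0.286), with overlapping groups. In all, 2 of the 9 enzymes were called in BALB/c, both higher, where 9.69% of features were called and 4.82% were called higher. In B10.D2, 1 of 9 was called, higher, where 4.58% of features were called. The median log2 change over the enzymes was 0.10 (BALB/c) and 0.13 (B10.D2), beside 0.0033 and 0.0076 over all features tested. Both injury comparisons come from 1 fit with a shared estimate of spread.

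**Figure D4:**
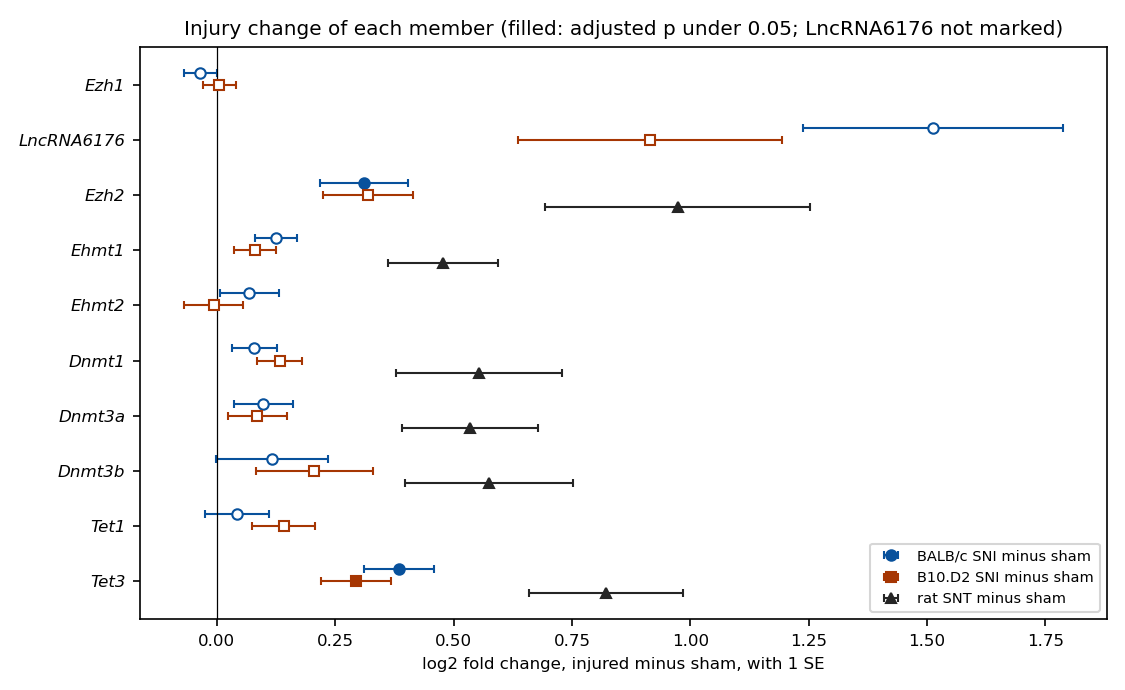
Log2 change after injury with bars of 1 SE for each member in BALB/c, B10.D2 and rat, filled where the edgeR adjusted p was under 0.05, with LncRNA6176 left unfilled since it was chosen for its change. Tet3 is filled in all 3 comparisons (0.38, 0.29 and 0.82), and Ezh1 lies at -0.04 and 0.01 in the mouse strains.

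No enzyme passed the test of the difference between strains in injury change by edgeR or DESeq2, and none had an unadjusted p under 0.05, where 0.0243% of features were called. The smallest unadjusted p was 0.309, for Tet1. Ranges of 2 SE either way for the B10.D2 minus BALB/c difference ran from -0.26 to 0.27 for Ezh2, -0.30 to 0.12 for Tet3 and -0.06 to 0.14 for Ezh1 on the log2 scale. Between strains, 2 of 9 enzymes were called lower in B10.D2 in sham libraries (Ezh2 and Dnmt3b), where 10% of features were, and 3 of 9 after SNI (with Tet3), where 9.98% were. No enzyme was called between the sexes by edgeR or DESeq2, where 0.243% of features were called, and 1 (Dnmt1, lower in females, log2 -0.07) had an unadjusted p under 0.05.

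In the rat, all 6 enzymes with counts rose after SNT, where 27.4% of features were called and 12.3% were called higher. Their median log2 change was 0.56, beside 0.0027 over all 13690 features tested. For Tet3, sham libraries 1 to 4 held 51.2, 43.1, 43.5 and 58.9 CPM and SNT libraries 1 to 4 held 63.8, 103.8, 94.99 and 84.9 CPM, with no overlap (log2 0.82, SE 0.163, edgeR adjusted p = 0.0120). It was called without any single library, and the log2 change was 1.05 without both intermediate libraries.

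Rat Ezh2 showed the largest change of the 6 enzymes, with overlapping groups. Sham libraries 1 to 4 held 24.7, 17.5, 22.7 and 49.3 CPM, and SNT libraries 1 to 4 held 46.0, 61.7, 60.8 and 55.9 CPM. Sham library 4 lay above SNT library 1, and the change was 1.96-fold (log2 0.97, SE 0.280, edgeR adjusted p = 0.0303). Without both of these libraries it was 1.47 (log2). Sham library 4 was also the highest sham library in summed proliferating-cell markers (234.1 CPM, against 112 to 234.1 CPM in sham and 182 to 277 CPM after SNT) and in macrophage markers (1757 CPM, against 390 to 1757 CPM in sham and 1525 to 2186 CPM after SNT). The part of these cells in the rat differences was not tested, and Top2a, Mcm5, Mcm6, Cdk1, Birc5, Aif1, Csf1r, Cd68 and Mrc1 of these lists were listed at 0 in every rat library.

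Ehmt1 rose in the rat from 52.6, 57.9, 57.8 and 66.2 CPM in sham libraries 1 to 4 to 70.9, 90.5, 89.9 and 75.1 CPM in SNT libraries 1 to 4, with no overlap (log2 0.48, SE 0.116, edgeR adjusted p = 0.0178). Dnmt3b, the least abundant, rose from 4.23, 3.72, 4.20 and 5.54 CPM to 5.69, 6.75, 6.39 and 7.54 CPM, also with no overlap (log2 0.57, SE 0.178, edgeR adjusted p = 0.0384). Every SNT library lay above every sham library for 3 of 6 enzymes (Ehmt1, Dnmt3b and Tet3), as for 12.2% of features.

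Dnmt1 and Dnmt3a rose with overlapping groups, since sham library 4 stood with the SNT libraries. Dnmt1 held 47.5, 54.8, 52.5 and 77 CPM in sham and 69.7, 96.2, 100.2 and 74.3 CPM after SNT (log2 0.55, SE 0.175, edgeR adjusted p = 0.0410). Dnmt3a held 34.98, 34.8, 34.7 and 48.7 CPM in sham and 46.5, 61.4, 59.8 and 54.4 CPM after SNT (log2 0.53, SE 0.143, edgeR adjusted p = 0.0238). Without both intermediate libraries the log2 changes were 0.61 for Ehmt1, 0.77 for Dnmt3b, 0.81 for Dnmt1 and 0.75 for Dnmt3a. With 1 library left out in turn, the calls for Ezh2, Dnmt1, Dnmt3a and Dnmt3b held without sham library 4 or SNT library 1 and were lost without any of the other 6 libraries (adjusted p up to 0.111), and the call for Ehmt1 was lost without SNT library 2 or sham library 3 (adjusted p up to 0.0557). Every one of these estimates stayed positive.

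**Figure D5:**
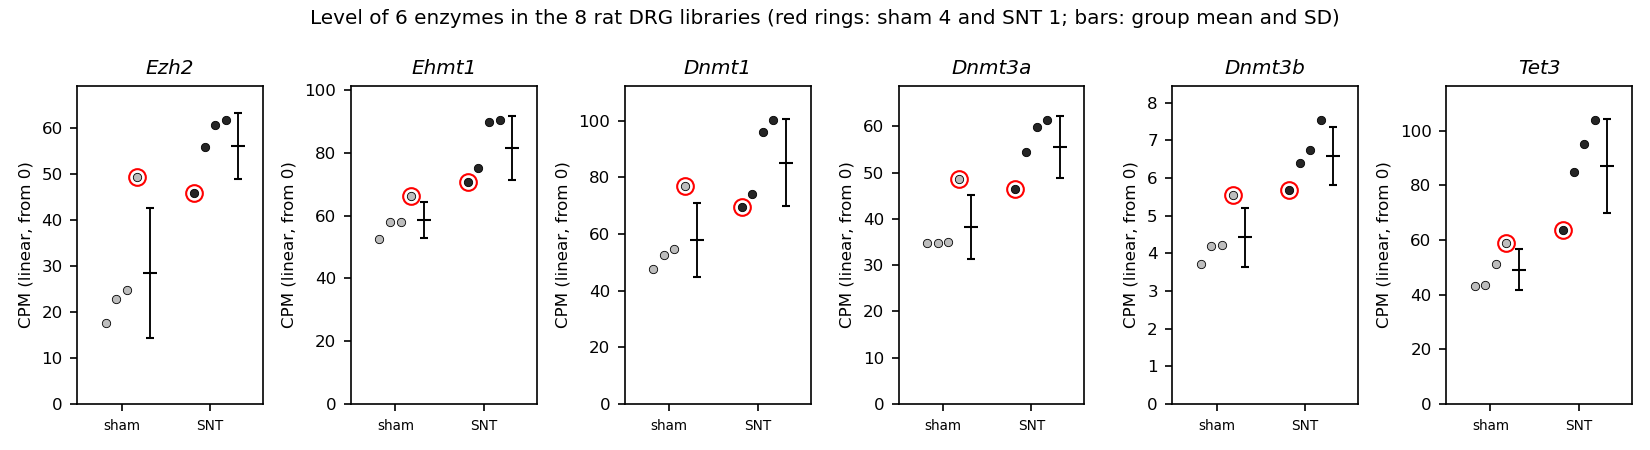
CPM of the 6 rat enzymes with counts in 4 sham and 4 SNT libraries, 1 panel per gene with its own vertical axis, points for libraries, bars for mean and SD, and red rings on sham library 4 and SNT library 1. The ringed sham library is the highest sham point for Ezh2 (49.3 CPM), Dnmt1 (77 CPM) and Dnmt3a (48.7 CPM).

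Ezh1, Ehmt2 and Tet1 were listed at 0 in all 8 rat libraries, and no level is inferred from this. Of the genes that flank each of them in the mouse (20 on each side with at least 5 CPM in mouse and a rat gene of the same symbol), 40 of 40 were also listed at 0 in the rat for each of the 3 genes. For the enzymes with counts, 0 of 40 flanking genes were listed at 0 for Ezh2, Dnmt1 and Dnmt3b, 0 of 24 for Dnmt3a, 2 of 40 for Tet3 and 16 of 40 for Ehmt1. LncRNA6176 is a mouse feature with no rat row.

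Over 6 lists of partners of these enzymes, the share of genes called in the mouse was near that of all features: 9 of 92 (9.78%) in BALB/c beside 9.69%, and 3 of 92 (3.26%) in B10.D2 beside 4.58%. In the rat it was 18 of 50 (36%) beside 27.4%. Of 10 other PRC2 subunits, none was called in either strain by edgeR (1 in each at an unadjusted p under 0.05, and by DESeq2 1 in BALB/c and 0 in B10.D2), with medians of 0.05 and 0.03 (log2). The smallest adjusted p in BALB/c were those of Rbbp4, a histone-binding subunit (log2 0.11, adjusted p = 0.0654), and Eed, the subunit that reads the lysine 27 mark (log2 0.12, adjusted p = 0.234). In the rat 1 of 5 tested subunits was called, Aebp2 (log2 0.64, adjusted p = 0.0131). Of 19 PRC1 subunits, which ubiquitinate histone H2A and bind the lysine 27 mark, 1 was called higher in BALB/c and 1 lower in B10.D2, and in the rat 2 were higher and 1 lower of 8. Yaf2, a PRC1 partner, fell in B10.D2 (log2 -0.26, adjusted p = 0.0240) and in the rat (log2 -0.58, adjusted p = 0.0197). The PRC1 medians were 0.04, 0.02 and 0.21 in BALB/c, B10.D2 and rat.

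Other lysine 9 methyltransferases and partners gave 0 calls of 14 in either strain by edgeR and DESeq2 (3 in BALB/c and 1 in B10.D2 at an unadjusted p under 0.05) and 1 higher of 8 in the rat, with medians of 0.03, 0.01 and 0.28. The smallest adjusted p in BALB/c were those of Mphosph8, which binds the lysine 9 mark (log2 -0.21, adjusted p = 0.113), and Atf7ip, a partner of Setdb1 (log2 0.11, adjusted p = 0.188). Lysine 27 and lysine 9 demethylases gave 1 higher and 1 lower of 14 in BALB/c, none in B10.D2 by edgeR or DESeq2 (1 at an unadjusted p under 0.05) and 1 higher of 7 in the rat, with medians of 0.07, 0.05 and 0.11. In BALB/c, Kdm4d fell (log2 -0.47, adjusted p = 0.0161) and Kdm1a, which removes lysine methylation within corepressor complexes, rose (log2 0.16, adjusted p = 0.0440).

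DNA methylation partners and readers gave 7 higher of 12 in the rat, where 12.3% of features were called higher. They gave 3 higher of 17 in BALB/c, beside 4.82% of features, and 1 higher of 17 in B10.D2, beside 2.10% (medians 0.45, 0.08 and 0.09). Gadd45a, a stress-induced gene linked to DNA demethylation, rose in BALB/c (log2 1.09, adjusted p = 1.15e-06), B10.D2 (log2 0.58, adjusted p = 0.00302) and rat (log2 1.26, adjusted p = 0.0297). Uhrf1, which brings Dnmt1 to replicating DNA, rose in BALB/c (log2 1.09, adjusted p = 0.0397) and rat (log2 1.15, adjusted p = 0.0438). Zbtb38, a reader of methylated DNA, rose in BALB/c (log2 0.14, adjusted p = 0.0319) and rat (log2 0.58, adjusted p = 0.0192).

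Histone deacetylases and corepressors gave 2 higher and 1 lower of 18 in BALB/c, 1 higher of 18 in B10.D2 and 3 higher and 2 lower of 10 in the rat, with medians of 0.06, 0.00083 and 0.26. Sin3a, a corepressor scaffold, rose in B10.D2 (log2 0.15, adjusted p = 0.0486) and rat (log2 0.36, adjusted p = 0.0274). Hdac11 fell in BALB/c (log2 -0.22, adjusted p = 0.0418) and rat (log2 -0.90, adjusted p = 0.0208).

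Genes known as targets of Ehmt2, Ezh2 or Dnmt3a silencing in injured ganglia, among them potassium channels and opioid, cannabinoid and muscarinic receptors, gave 3 lower of 10 in each mouse strain and 5 lower of 8 in the rat, with none higher. Over all features, 4.87% were called lower in BALB/c, 2.48% in B10.D2 and 15.1% in the rat. The medians of this list were -0.11, -0.09 and -1.26 (log2). Oprd1, the delta opioid receptor, fell in BALB/c (log2 -0.70, adjusted p = 9.91e-06), B10.D2 (log2 -0.80, adjusted p = 6.60e-06) and rat (log2 -1.59, adjusted p = 0.0322). Kcna2, a potassium channel, fell in BALB/c (log2 -0.34, adjusted p = 0.00240), B10.D2 (log2 -0.24, adjusted p = 0.0405) and rat (log2 -1.33, adjusted p = 0.0106). Chrm2, a muscarinic receptor, fell in BALB/c (log2 -0.48, adjusted p = 0.000471) and B10.D2 (log2 -0.39, adjusted p = 0.00519). Summed neuronal markers ran lower in mouse with overlapping ranges, at 8103 to 9410 CPM in BALB/c sham against 7156 to 8266 CPM after SNI. In B10.D2 they were 8357 to 9429 against 6995 to 8638 CPM. Of these 9 markers, 3 were called lower in each strain (Snap25, Nefh and Nefm), and only Tubb3 had a positive estimate (log2 0.10 and 0.05). In the rat, 2 of 8 listed markers had counts, with a sum of 3656 to 5185 CPM in sham and 3496 to 5505 CPM after SNT. The part of neuronal content in these changes was not tested.

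The other marker lists moved as follows, counted as called of tested in BALB/c, B10.D2 and rat. Over all features, 4.82%, 2.10% and 12.3% were called higher in these comparisons, and 4.87%, 2.48% and 15.1% lower. Neuronal markers gave 3 lower of 9, 3 lower of 9 and 1 lower of 2, and injured-neuron markers 8, 7 and 5 higher of 8, 8 and 5. Macrophage markers gave 4 higher of 9, 0 of 9 (8 at an unadjusted p under 0.05 and 1 by DESeq2) and 1 higher of 5. Fibroblast markers gave 1 higher of 5, 1 higher of 5 and 2 higher of 3, satellite glial markers 1 higher of 6, 1 higher of 6 and 1 lower of 1, and endothelial markers 1 higher of 4, 0 of 4 (0 at an unadjusted p under 0.05 and 0 by DESeq2) and none tested. Schwann cell markers gave 0 of 7, 0 of 7 (0 at an unadjusted p under 0.05 and 0 by DESeq2 in each) and 1 higher of 3. Lymphocyte markers gave 0 of 6, 0 of 6 (3 and 0 at an unadjusted p under 0.05, 0 by DESeq2) and 2 higher of 5, and neutrophil markers 0 of 3 in each (0 at an unadjusted p under 0.05 and 0 by DESeq2). Proliferating-cell markers gave 0 of 6 in the rat by edgeR, with 2 at an unadjusted p under 0.05 and 2 by DESeq2.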

How the data were processed

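RNA from mouse and rat dorsal root ganglia was sequenced as strand-marked (dUTP) paired-end libraries. The authors aligned reads with STAR and deposited whole-number read counts per gene or LncRNA from HTSeq (intersection-nonempty), on mm10 (GRCm38) and rn6, and their processing notes also name SAMtools. These deposited counts were used as they stood. The authors' DESeq2 result tables, which hold fold changes and p-values, were used only to pair gene IDs with symbols.

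CPM were computed here from the counts and TMM factors. Differences were tested with edgeR 4.0.16 in R 4.3.3 (quasi-likelihood F test, filterByExpr, Benjamini-Hochberg adjustment over all features, threshold 0.05). The mouse model was sex plus strain by surgery over 20 libraries and the rat model was surgery over 8. SE was derived from the F statistic. Correlations used log2(CPM + 0.5) and 100000 permutations, or all of them below 10 libraries. Structures were compared with the deposited annotation and junctions, GENCODE spans and RefSeq GRCm38. Sample 59, a B10.D2 mouse after sham surgery, and sample 66, a BALB/c mouse after SNI, were not analysed here. The code was tested on simulated data.

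Members and lists were chosen with earlier results of these data known. List genes were named when called in 2 or more injury comparisons, otherwise the 2 smallest adjusted p in BALB/c, and all members, neighbours within 50 kb and the 5 features most alike were named. A few further values were named after they were seen: the single list calls Aebp2, the neighbours' unadjusted passes and the proliferation markers Mcm3, Mcm6 and Ccnb1. Alternatives were DESeq2 1.42.0, other scaling and filters, single sexes, single strains, a run-number block and leaving out libraries.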

Additional observations from a re-analysis of the deposited data

Results flagged for a closer look

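Dixon's test at 95% singled out 5 of 52 combinations of member and group, and chance alone flags about 1 in 20. Ezh2 in BALB/c SNI library 49 (20.8 CPM) lay far above the other 3 libraries of its group, and this library also had the highest summed proliferating-cell markers. Ezh2 in B10.D2 SNI library 69 (11.1 CPM) lay far above its group. Ehmt2 in B10.D2 sham library 77 (59.2 CPM) lay far below its group, and Dnmt3a in BALB/c sham library 57 (81.9 CPM) far above it. Dnmt3a in rat sham library 4 (48.7 CPM) lay far above the other sham libraries, and this library was 1 of the 2 intermediate libraries.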

How the results depend on the processing

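In BALB/c 2392 features were called, 902 in females alone, 415 in males alone and 1643 to 2649 with 1 library left out. In B10.D2 the 1130 calls became 187, 95 and 665 to 1214. In the rat the 3753 calls became 6100 without both intermediate libraries, an alternative chosen after seeing the data that widens the group difference by construction, and 1483 to 5041 with 1 library left out. The 6 interaction calls became 10 with DESeq2, 3 with at least 10 counts and 3 to 6 with 1 library left out, and the 60 sex calls became 242 with DESeq2, 222 with no filter and 35 to 159. Called enzymes in BALB/c (2) became 1 with each strain fitted alone, 0 in females, 0 in males and 1 to 2 with 1 library left out. In B10.D2 the 1 call became 2 with DESeq2, 0 with each strain alone, 0 in females, 0 in males and 0 to 2. In the rat the 6 calls became 1 to 6. Signs changed for small differences: in BALB/c, Ehmt2 (-0.0206) and Dnmt1 (-0.0483) in females and Tet1 (-0.0264) in males, and in B10.D2, Ezh1 (-0.0024 with each strain alone, -0.0328 in females) and Ehmt2 (0.0046 with each strain alone, 0.0589 in females). With 1 library left out, Ezh1 ranged from -0.0140 to 0.0171 and Ehmt2 from -0.0668 to 0.0187 in B10.D2, and the strain difference in sham from -0.0196 to 0.0133 for Ezh1, -0.0840 to 0.0154 for Tet1 and -0.0719 to 0.0078 for Dnmt3a, and after SNI from -0.0629 to 0.0299 for Ehmt2. The centred r of LncRNA6176 with Ezh1 ranged from -0.185 to 0.129. Without TMM factors Ezh1 in BALB/c SNI was 93.4 CPM. The cause of these changes was not tested.

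With the rat run number as a block, 2558 features were called against 3753. The calls of Dnmt1 (edgeR adjusted p = 0.0661) and Dnmt3b (edgeR adjusted p = 0.0608) were lost. Deviations of same-numbered libraries from their group means correlated at -0.272 to 0.0518. With 4 libraries a group, these values cannot decide whether the numbers pair the samples. With no filter on low counts, rat Dnmt3b had an adjusted p of 0.0505.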
